A study of Homo sapiens with 12 samples.

Results

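Broad RNF2 domains were the peaks of 10 kb or more in the RNF2 peak list of wild-type H1 cells. Of 29310 RNF2 peaks, 711 reached that width, which was 2.43% of the peaks but 16.1 of 66.5 Mb, or 24.2%, of the summed RNF2 length. They were chosen by their width in the RNF2 list alone, so their width and their RNF2 enrichment are given below as descriptions. H1 is an established human embryonic stem cell line, and the study profiled chromatin immunoprecipitates from it by sequencing (ChIP-seq). YTHDF1 ChIP and its input came from H1 cells treated with YTHDF1 shRNA, a knockdown of that gene. RNF2, H2AK119ub and YTHDF1 ChIP and an input came from untreated wild-type H1 cells. Each of these 6 groups had 2 biological replicates, all were grown in mTeSR1 medium, and the replicates of a ChIP target were merged by the authors into 1 peak list, so no list carried a spread between replicates. Depth is unknown from peak lists, and the intervals below are exact 95% intervals that cover counting error only, with wide regions and clustered genes treated as if they were independent.

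RNF2 (also called RING1B) is the catalytic E3 ligase of Polycomb repressive complex 1 (PRC1), which places a single ubiquitin on a lysine of histone H2A, the mark H2AK119ub. Wide PRC1 domains in embryonic stem cells are known to lie over CpG-rich promoters of developmental regulators that are silent until differentiation, the HOX clusters being the classical case. YTHDF1 is best known as a cytoplasmic reader of the m6A modification of RNA, and the study asked how its chromatin signal relates to PRC1 and to the mark.

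Domains held 42 of 1913 miRNA genes (2.2%), beside 3.84% of coding genes. A gene counted by any overlap, so these shares depend on gene length and do not rank the classes. Coding genes had a median length of 24.1 kb, and 329 of 20033 lay wholly inside a domain. Some of the miRNAs in domains, chosen after their values were seen, are shown because all their loci, or a cluster of them, lay in domains. All 3 miR-9 loci and all 3 miR-196 loci did so, as did both miR-10 loci. Other families were split, with 1 of 3 miR-124 loci and 1 of 2 miR-129 loci in a domain, and MIR219A2 inside but MIR219A1 outside. Below are mature sequences from RefSeq (GRCh38.p14), 5′ to 3′, with the seed, bases 2 to 8, in capitals. miR-9-5p and miR-9-3p are the 2 arms of 1 hairpin that is repeated at chr1:156420341-156420429, chr5:88666853-88666939 and chr15:89368017-89368106.
hsa-miR-9-5p: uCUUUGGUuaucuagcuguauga
hsa-miR-9-3p: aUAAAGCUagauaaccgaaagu
hsa-miR-196a-5p: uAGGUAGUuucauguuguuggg
hsa-miR-196b-5p: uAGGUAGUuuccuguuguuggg
hsa-miR-10a-5p: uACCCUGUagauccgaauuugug
hsa-miR-137-3p: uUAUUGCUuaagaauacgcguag
hsa-miR-449a: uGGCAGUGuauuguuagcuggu
hsa-miR-449b-5p: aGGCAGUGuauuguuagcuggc
miR-196a-5p, encoded in the HOXB and HOXC clusters, and miR-196b-5p, encoded in the HOXA cluster, shared the seed AGGUAGU. miR-449a and miR-449b-5p shared the seed GGCAGUG and came from 1 domain. Their loci are described with the other noncoding genes.

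4 promoters are shown because RNF2 and H2AK119ub cover all of them and they differ in setting. EN2 is from one of the widest domains, SOX1 and MT2A have a YTHDF1 peak on the promoter itself, and TET2 lies next to the domain with the lowest H2AK119ub cover. The sequences are RefSeq's (GRCh38.p14), 250 bases before to 50 after the listed start, with each CG dinucleotide in capitals.
EN2 promoter, chr7:155457879-155458178 (+ strand): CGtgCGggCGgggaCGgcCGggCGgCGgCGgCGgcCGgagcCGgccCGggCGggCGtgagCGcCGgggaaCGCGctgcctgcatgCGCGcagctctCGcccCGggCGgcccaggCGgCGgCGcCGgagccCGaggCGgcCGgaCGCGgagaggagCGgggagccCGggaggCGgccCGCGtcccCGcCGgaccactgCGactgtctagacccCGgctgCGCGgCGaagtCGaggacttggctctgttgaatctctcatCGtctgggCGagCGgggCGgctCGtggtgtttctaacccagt
SOX1 promoter, chr13:112066899-112067198 (+ strand): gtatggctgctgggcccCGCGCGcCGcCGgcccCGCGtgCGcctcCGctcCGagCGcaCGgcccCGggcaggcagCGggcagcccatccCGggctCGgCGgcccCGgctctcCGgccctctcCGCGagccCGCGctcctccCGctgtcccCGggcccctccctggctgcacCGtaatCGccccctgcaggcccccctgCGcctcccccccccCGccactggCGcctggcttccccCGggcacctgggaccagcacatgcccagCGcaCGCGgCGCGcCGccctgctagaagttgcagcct
MT2A promoter, chr16:56608334-56608633 (+ strand): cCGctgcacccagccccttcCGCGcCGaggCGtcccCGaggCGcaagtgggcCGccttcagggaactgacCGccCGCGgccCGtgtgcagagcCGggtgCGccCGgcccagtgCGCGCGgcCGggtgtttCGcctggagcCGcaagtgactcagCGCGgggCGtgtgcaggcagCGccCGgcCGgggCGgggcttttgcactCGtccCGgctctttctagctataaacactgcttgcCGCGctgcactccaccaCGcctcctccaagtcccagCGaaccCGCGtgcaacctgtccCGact
TET2 promoter, chr4:105145625-105145924 (+ strand): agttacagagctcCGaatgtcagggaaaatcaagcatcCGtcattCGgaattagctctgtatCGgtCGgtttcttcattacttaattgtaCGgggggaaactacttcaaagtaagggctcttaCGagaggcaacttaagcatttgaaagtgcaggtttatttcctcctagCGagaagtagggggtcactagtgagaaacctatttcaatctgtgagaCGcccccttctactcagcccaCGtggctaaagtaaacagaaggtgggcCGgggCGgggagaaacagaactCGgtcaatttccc
They held 50, 37, 37 and 13 CG dinucleotides in the order shown. The median was 22 (quartiles 8 and 32) over the 15842 coding genes with a promoter, and 14 (4 and 28) over all 35116 promoters of the table. These 4 were picked as examples and do not stand for the domains. The table had a promoter for 71.3% of the coding genes in domains, under the 80% set for a comparison, so base composition was not compared over the whole set.

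The domains were widest over gene clusters of developmental transcription factors. Their median width was 17.3 kb (quartiles 12.4 and 28.1 kb), against 1.32 kb for the other RNF2 peaks. There were 302 domains of at least 20 kb, 66 of at least 40 kb and 4 of at least 100 kb. Those 4 were the HOX clusters, which encode the homeodomain proteins that specify position along the body axis. The HOXA domain spanned 181.4 kb (chr7:27079987-27261361, hg38) and took in EVX1. The HOXC domain spanned 181.1 kb, the HOXD domain, with EVX2, 141.8 kb, and the HOXB1 to HOXB9 domain 141.1 kb. The next in width were the ZIC4 and ZIC1 domain at 83.9 kb, over zinc-finger genes of the neural tube, and the domain of EN2, a homeobox gene of the midbrain and hindbrain, with CNPY1, at 81.6 kb. The metallothionein cluster, 8 coding genes from MT2A to MT1H whose products bind zinc and other metals, lay in a 75.8 kb domain and is no transcription factor locus. A 69.8 kb domain over MIR9-3HG held no coding gene. NR2F2, an orphan nuclear receptor, had a 67.8 kb domain, and CBX2 and CBX8, which encode chromodomain subunits of PRC1 itself, shared one of 66.3 kb.

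**Figure D1:**
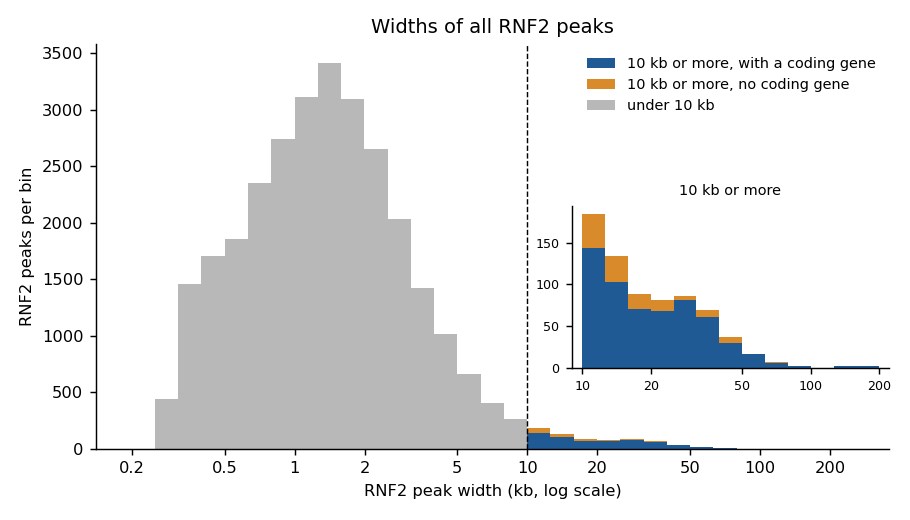
Widths of all 29310 RNF2 peaks on a log scale (x, kb) against the number of peaks per bin (y), with the 711 broad domains enlarged in the inset. Blue bars are domains with a coding gene, orange bars those without and grey bars peaks under 10 kb; the broad domains form the right tail with no gap at the 10 kb line.

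RNF2 enrichment followed width. The authors' fold enrichment at the peak had a median of 30.0 in domains (3.41 to 155), against 3.71 in the other RNF2 peaks (2.17 to 93.5), and over the 711 domains width and fold had a Spearman rho of 0.74, from 1 list and 1 peak call. GATA4, a heart and endoderm transcription factor, had the highest fold, 155, in a 64.3 kb domain. Around the 10 kb limit the values ran on without a break. The narrowest domains measured 10081 bp, over GCM2 and SYCP2L, 10094 bp, with no coding gene, and 10115 bp, over PNMA8B, with folds of 20.5, 16.4 and 14.4. The widest peaks left out measured 9993 bp, over ATP2B1, 9989 bp and 9984 bp, over SHISA3, with folds of 14.3, 10.7 and 26.2. RNF2 summits lay mostly inside: 43.7% were in the innermost 20% of their domain by distance from the edge. Of all summits, 24.1% (interval 21.0 to 27.4) lay within 1 kb of an end of a coding gene, stretches that made up 12.3% of the domain length.

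The domains held 770 of the 20033 protein-coding genes of the RefSeq table, which is 3.84% of them, whereas 69.8% of all coding genes overlapped an RNF2 peak of any width. Of the 770 genes, 329 lay wholly inside a domain and 713 had an end inside. 20 were predicted genes with LOC symbols and 5 were readthrough genes. Most domains, 458, overlapped 1 coding gene, 85 overlapped 2 and 28 overlapped 3. The most gene-rich were HOXA with 13, HOXD with 10, HOXC and HOXB1 to HOXB9 with 9 each and the metallothionein domain with 8. The genes in domains were shorter than coding genes in general, with a median of 15.97 kb against 24.1 kb for all.

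Pooled over 9 lists of developmental transcription factors, most members were in broad domains, although the SOX, forkhead and ZIC, GLI and SALL lists had under 50% inside. Over the 9 lists, 168 of 242 genes (69.4%) lay in a domain, beside 3.84% of all coding genes, and 134 of the 711 domains (18.8%) held one. All gene lists here were chosen with earlier results of these data known, so their shares are descriptions. All 39 HOX genes lay in 5 domains, the 4 above and that of HOXB13 (61.4 kb). All 18 LIM and IRX homeobox genes were in a domain, among them LMX1B (40.6 kb) and LHX2 (37.7 kb), patterning genes of limb and forebrain, ISL1 (34.3 kb), a motor neuron and heart gene, and IRX2 (34.1 kb). Of the NKX, DLX and MSX genes, 20 of 22 were in a domain, led by DLX5 and DLX6 together (53.6 kb), NKX2-6 (47.6 kb) and NKX2-1 (45.0 kb), the thyroid, lung and forebrain regulator. NKX1-2 and NKX6-3 were outside. Of the list of PAX, OTX, PITX and further homeobox genes, 16 of 21 were in a domain, with PAX2 (51.7 kb), PAX3 (49.5 kb), PAX7 (43.7 kb) and PAX6 (43.0 kb) the widest. GATA and T-box genes were in a domain in 16 of 23 cases, led by GATA4 (64.3 kb), TBX5 (64.0 kb) and TBX3 (59.3 kb), genes of heart and limb, and GATA3 (43.8 kb).

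Other families were split. Of 40 developmental bHLH genes, 23 were in a domain, the widest being those of HAND2 (57.0 kb) and HAND1 (40.8 kb), which act in heart formation, TAL1 (39.7 kb), a blood regulator, and the neuronal gene NEUROD2 (35.4 kb). MYOD1 and MYOG of the muscle program were outside, whereas MYF5 and MYF6 were inside. Forkhead genes were in a domain in 20 of 44 cases, led by FOXD2 and FOXE3 (53.1 kb), FOXD1 (43.3 kb) and the endoderm gene FOXA2 (38.5 kb). SOX genes were inside in 9 of 20 cases, with SOX1 (34.3 kb), a neural progenitor gene, SOX17 (34.2 kb), an endoderm gene, SOX14 (27.0 kb) and SOX6 (23.6 kb) the widest. All 20 SOX genes overlapped some RNF2 peak. ZIC, GLI and SALL genes were inside in 7 of 15 cases, ZIC2 and ZIC5 sharing a domain of 51.1 kb.

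**Figure D2:**
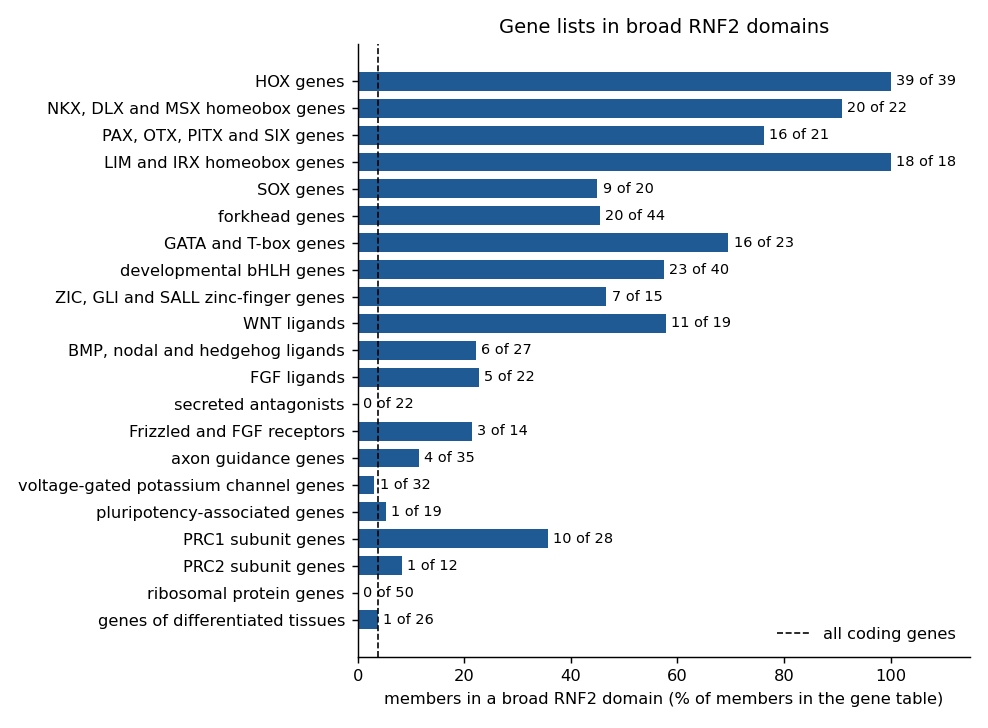
Share of each gene list that lay in a broad RNF2 domain (x, percent of the members found in the gene table), with the counts beside the bars; the dashed line is the 3.84% of all coding genes. Homeobox lists stand at 76.2% to 100%, whereas secreted antagonists and ribosomal protein genes have no member in a domain. The lists were chosen with earlier results of these data known.

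A smaller share of the signalling genes was in broad domains. Over 5 lists of ligands, antagonists and receptors, 25 of 104 genes (24.0%) lay in a domain. WNT ligands were in a domain in 11 of 19 cases, with WNT6 and WNT10A together at 51.7 kb, WNT1 and WNT10B together at 46.0 kb and WNT5A at 22.8 kb. Bone morphogenetic protein, nodal and hedgehog ligands were inside in 6 of 27 cases: GDF6 (38.9 kb), BMP4 (25.1 kb), SHH (21.1 kb), GDF7 (15.3 kb), BMP7 (12.9 kb) and IHH (12.4 kb). FGF ligands were inside in 5 of 22 cases, FGF17 (38.3 kb) and FGF5 (20.1 kb) leading, and Frizzled and FGF receptors in 3 of 14, FZD2 (30.4 kb), FZD10 (19.8 kb) and FZD1 (13.6 kb). None of the 22 secreted antagonists of these pathways was in a domain, although 21 of them overlapped a smaller RNF2 peak, the widest being 9.495 kb at SFRP1, 9.03 kb at GREM1 and 8.42 kb at HHIP, just short of the limit. With the width minimum at 5 kb in place of 10 kb such genes would be counted, so the 0 belongs to the limit chosen.

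The other lists ran from 0% for ribosomal protein genes to 35.7% for PRC1 genes, beside 3.84% of all coding genes. Of 19 pluripotency-associated genes found in the table, 1 (5.26%), SOX2, lay in a domain, of 23.5 kb, wholly covered by H2AK119ub and with no YTHDF1 peak. POU5F1, NANOG, DNMT3B and LIN28A were not in a domain. No ribosomal protein gene of 50 was in a domain, although 36 overlapped an RNF2 peak, the widest 4.63 kb at RPL7. Of 26 genes of differentiated tissues 1 (3.85%) was inside, SFTPC, which encodes a lung surfactant protein. Of 35 axon guidance genes, all on an RNF2 peak, 4 (11.4%) were inside, ROBO3 (46.0 kb), NTN1 (15.2 kb), NRP2 (11.6 kb) and NTNG2 (11.2 kb). Of 32 voltage-gated potassium channel genes 1 (3.12%), KCNA4 (19.7 kb), was inside. Genes of PRC1 were in a domain in 10 of 28 cases (35.7%). Among them were CBX2 and CBX8 of the canonical complex (66.3 kb), BMI1 (47.0 kb), AUTS2 (43.7 kb), PCGF1 (35.4 kb), BCOR (32.0 kb at its widest), YAF2 (16.8 kb), BCORL1 (12.3 kb) and RING1 (12.3 kb), the paralogue of RNF2. RNF2 itself was not in a domain. Of 12 PRC2 genes 1 (8.33%), EPOP (16.8 kb), was inside.

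The domains with a listed transcription factor were wider than those without one. They had a median width of 29.5 kb against 15.4 kb, and a median RNF2 fold of 68.8 against 25.1. H2AK119ub and YTHDF1 did not separate them in the same way. At least 90% of the length was covered by H2AK119ub in 78.4% (interval 70.4 to 85.0) of the domains with a listed factor and in 79.4% (75.8 to 82.6) of those without. YTHDF1 midpoints per 100 kb numbered 3.69 (3.15 to 4.30) with a listed factor and 3.84 (3.49 to 4.21) without.

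H2AK119ub lay over nearly the whole of most domains. All 711 domains touched an H2AK119ub island, the term used here for an interval of the H2AK119ub list, against 84.7% of RNF2 peaks under 10 kb and 85.1% of all RNF2 peaks, and a wide peak has more chances to touch one. Cover of length also differed by width among the smaller peaks. Islands covered 94.8% of the summed domain length, against 89.9% of the summed length of the smaller peaks. Among the smaller peaks it was 70.6% under 1 kb, 88.1% at 1 to 2 kb, 94.9% at 2 to 5 kb and 95.4% at 5 to 10 kb. High cover of length was thus not particular to the domains. The median domain was covered over 99.7%, and the median smaller peak over 100%. At least 90% was covered in 563 domains (79.2%, interval 76.0 to 82.1), against 78.1% of smaller RNF2 peaks (77.7 to 78.6) and 78.2% of all. By this measure the domains were near the background of all RNF2 peaks, and the highest share was that of the 2 to 5 kb peaks, 90.6%. Across the 711 domains, width and cover had a Spearman rho of -0.06.

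**Figure D3:**
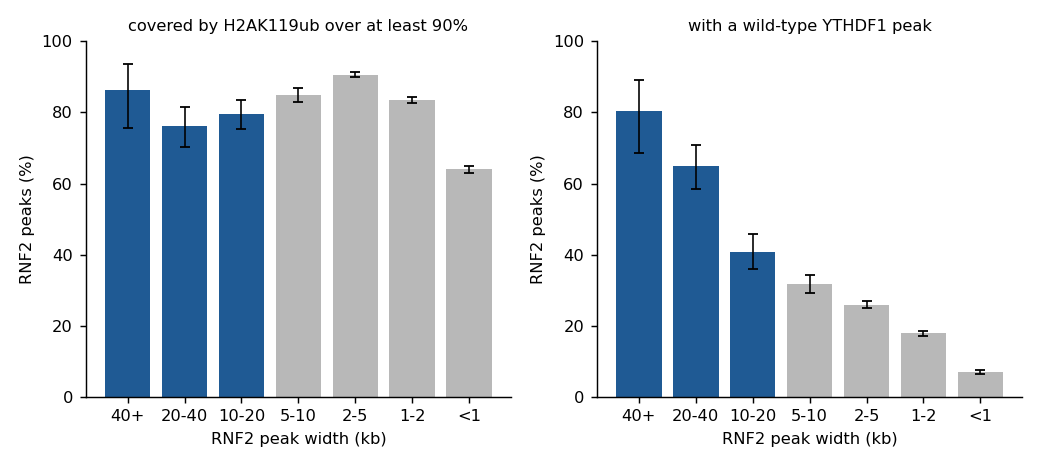
RNF2 peaks by width class (x, kb; blue, broad domains; grey, smaller peaks) and the percent of each class covered by H2AK119ub over at least 90% of the length (left) or touched by a wild-type YTHDF1 peak (right). Error bars are exact 95% binomial intervals: cover runs between 64.0% and 90.6% with no trend within the broad classes, whereas the share with YTHDF1 is 80.3% at 40 kb or more and 7.01% under 1 kb.

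Many domains lay inside a single island. 348 (48.9%) were wholly covered by 1 island, the widest of them HOXB1 to HOXB9, whose island measured 172.8 kb, followed by the metallothionein, MIR9-3HG, NR2F2 and CBX2 domains. 626 domains touched 1 island, 77 touched 2 and 8 touched 3. In turn 45 of the 755 islands on domains joined several domains, and 1 island of 131.2 kb (chr19:12977201-13108400) ran over 4, which carry NFIX, a nuclear factor of muscle and brain, LYL1, a blood bHLH gene, and TRMT1. Islands on domains had a median width of 22.4 kb, against 4.60 kb for all islands, and 82.3% of them were at the list's highest score of 1000, against 8.06% of all. Wide islands have more chances to touch a domain, and islands of like width were not compared. Both contrasts thus depend in part on how the islands were chosen. Outside the domains the cover fell away: islands covered 46.1% of the flanks within 10 kb, 28.2% at 10 to 50 kb and 23.1% at 50 to 100 kb.

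A small set of domains was poorly covered, 22 of them under 70%. The lowest cover, 40.7%, was in a 14.2 kb domain (chr4:105151594-105165828) inside TET2, which encodes an enzyme that oxidises 5-methylcytosine. The neighbouring 10.6 kb domain 227 bp away, which holds the TET2 promoter printed above, was wholly covered by an island only slightly longer than itself. The other 4 lowest were a 13.6 kb domain over LINC02932, 78.9 kb above FZD1 (45.5%), a 12.7 kb domain without coding genes between PDX1 and CDX2 (54.5%), the 23.9 kb domain of SLITRK2, a neuronal adhesion gene (54.5%), and a 12.2 kb domain of RBM20, a splicing regulator of heart muscle (55.9%). Next to the domain between PDX1 and CDX2, 258 bp away, lay the 42.1 kb domain of CDX2, an intestinal regulator, which was covered over 99.3% and carried 5 YTHDF1 peaks, so that adjoining domains could differ in both readouts.

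YTHDF1 peaks of wild-type cells were found in about as many domains as not. 373 domains (52.5%, interval 48.7 to 56.2) overlapped a YTHDF1 peak, against 16.5% (16.1 to 16.9) of smaller RNF2 peaks and 17.4% of all. 230 domains had 1, 92 had 2, 30 had 3 and 21 had more. The most, 9 each, were in the HOXC domain and the domain of CBX2 and CBX8. HOXA had 8, HOXD, NFIX and ZIC5 with ZIC2 had 6 each, and HOXB1 to HOXB9, MIR9-3HG, ZFHX3, PAX2, CDX2 with URAD and POU4F3 had 5 each. The widest domains with none were those of NR2F1 (64.1 kb), HAND2 with SCRG1 (57.0 kb), WNT6 with WNT10A (51.7 kb) and VAX1 (50.4 kb).

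Per length the order turned round. The domains held 3.80 YTHDF1 midpoints per 100 kb (3.50 to 4.11), against 9.35 (9.09 to 9.62) in RNF2 peaks under 10 kb, a pair of intervals that did not overlap. With the better-scoring 50% of each list in place of the whole lists, the domains had 0.0229 midpoints per kb, against 0.0380. By width the density per 100 kb, with the whole lists, was 4.04 in domains of 40 kb or more, 3.56 at 20 to 40 kb and 3.93 at 10 to 20 kb, then 5.50 in peaks of 5 to 10 kb, 9.38 at 2 to 5 kb, 12.0 at 1 to 2 kb and 8.96 under 1 kb. A YTHDF1 peak had a median width of 472 bp in domains, so narrow RNF2 peaks were counted over lengths close to that of a YTHDF1 peak. Against other chromatin the domains were higher: H2AK119ub islands without an RNF2 peak had 2.92 per 100 kb (2.83 to 3.02), such islands of 10 kb or more 3.13 (2.92 to 3.35), the flanks 2.26 within 10 kb, 2.19 at 10 to 50 kb and 2.23 at 50 to 100 kb, and all chromosomes 1.44.

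The density was tied to gene ends within the domains too. Stretches within 1 kb of an end of a coding gene made up 12.3% of the domain length and held 23.9% of the YTHDF1 midpoints. There the density was 7.40 per 100 kb (6.25 to 8.70) in domains, against 15.6 (15.0 to 16.2) in smaller RNF2 peaks and 4.16 (3.65 to 4.72) in islands without RNF2. Farther from gene ends it was 3.29 (3.0 to 3.61) in domains, against 6.10 (5.84 to 6.38) in smaller RNF2 peaks and 2.87 (2.77 to 2.96) in islands without RNF2. The domains thus lay between the other classes in both places. Inside a domain the density was 2.93 (2.36 to 3.58) in the outermost 20% by distance from the edge and 4.67 (3.95 to 5.48) in the innermost 20%, with 3.74, 3.64 and 4.02 from the edge inwards between them. The median distance from a YTHDF1 midpoint to the RNF2 summit was 5.27 kb, and 11.8% of midpoints were within 1 kb of it.

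**Figure D4:**
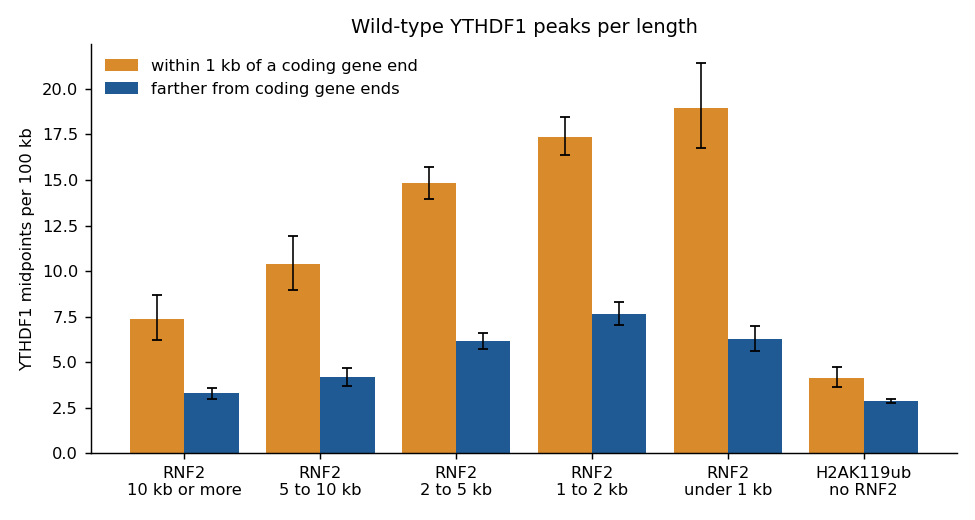
Midpoints of wild-type YTHDF1 peaks per 100 kb (y) in broad RNF2 domains, smaller RNF2 peaks by width and H2AK119ub islands without RNF2 (x), within 1 kb of a coding gene end (orange) and farther (blue). Error bars are exact 95% Poisson intervals: the domains, at 7.40 and 3.29, stand below all 4 smaller RNF2 classes and above the islands without RNF2 in both places.

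Most of these YTHDF1 peaks were weak. Their median fold enrichment was 2.94 in domains, against 2.89 for all YTHDF1 peaks. A −log10 q of 4 or more was reached by 30 of 614 (4.89%, interval 3.32 to 6.90), in 29 domains, against 2.39% of all YTHDF1 peaks. Such midpoints numbered 1.87 per Mb in domains (1.26 to 2.67), against 8.29 (7.52 to 9.13) in RNF2 peaks under 10 kb. H2AK119ub islands without RNF2 had fewer, 0.56 per Mb (0.44 to 0.70), and all chromosomes had 0.34. The flanks had 0.38 within 10 kb, 0.64 at 10 to 50 kb and 0.53 at 50 to 100 kb. One of the 30 peaks in domains stood far apart: a 1524 bp peak in the BMP4 domain (chr14:53952070-53953593) had a fold of 74.7, whereas the next had 4.35. BMP4 is a ligand that drives mesoderm and trophoblast-like differentiation of human embryonic stem cells, and its 25.1 kb domain held no other YTHDF1 peak. The next strongest by q lay in the domains of SOX1 (4.35), HOXA (4.34), CDK5R2, which encodes an activator of the neuronal kinase CDK5 (4.34), and LRP1 with NXPH4 and SHMT2 (4.08). The HOXA peak (chr7:27204566-27205256) lay on the HOXA13 and EVX1 side of the cluster. SLC32A1, the vesicular transporter for inhibitory transmitters (4.21), HOXB1 to HOXB9 (4.07), IRX5, TBX1 and NKX2-2 (3.92 to 3.93) also held such a peak.

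In knockdown cells 6 of 226 YTHDF1 peaks (2.65%, interval 0.98 to 5.69) lay in domains, beside 614 of 44498 (1.38%, 1.27 to 1.49) in wild-type cells. These 6 were in 6 domains, 0.844% of the 711 (0.310 to 1.83), beside 0.381% of smaller RNF2 peaks (0.313 to 0.460) and 0.392% of all. In both comparisons the intervals overlapped. Per length the order was the opposite, with 0.374 knockdown midpoints per Mb in domains (0.137 to 0.813), against 2.1 (1.72 to 2.54) in RNF2 peaks under 10 kb. The domain of CBX2 and CBX8 held a knockdown peak of 8.02-fold, and the wild-type peak it overlapped had 3.23. That of ZSWIM6, a zinc-finger gene, had 7.90 in knockdown cells and 3.51 in wild-type cells at the overlapping peak, and that of FOXJ1, the regulator of motile cilia, with RNF157, had 4.95 and 4.03. The knockdown peaks at OTP with WDR41 (4.47) and OTX2-AS1 (3.52) overlapped no wild-type peak, although each domain held wild-type peaks elsewhere. The AHNAK domain (3.43) held a knockdown peak and no wild-type peak. The fold of a peak is the authors' value within its own list, and the lists are of very unequal length, so these folds show no change. No knockdown peak lay in the BMP4 domain.

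Domains without a coding gene numbered 124, 17.4% of the 711 (interval 14.7 to 20.4), against 33.6% of smaller RNF2 peaks and 33.3% of all, and 42 (5.91%) overlapped no gene of any class. Among smaller peaks the share was 47.5% under 1 kb, 20.8% at 2 to 5 kb and 20.7% (18.5 to 22.9) at 5 to 10 kb. The last interval overlapped that of the domains, and a wide peak has more chances to touch a gene. The low share was thus not particular to the domains. The domains without a coding gene were narrower than those with one, with a median of 14.3 kb against 18.8 kb, and their RNF2 fold had a median of 20.1 against 32.7. Their H2AK119ub cover was much the same: 76.6% (68.2 to 83.7) were covered over at least 90%, against 79.7% (76.2 to 82.9) of those with a coding gene. They had fewer YTHDF1 peaks. 35.5% (27.1 to 44.6) held one, against 56.0% (51.9 to 60.1), and the density was 2.91 per 100 kb (2.26 to 3.70), against 3.95 (3.62 to 4.29), where the intervals of the densities overlapped slightly. Over all domains the share with a YTHDF1 peak rose with width, 40.8% at 10 to 20 kb, 64.8% at 20 to 40 kb and 80.3% at 40 kb or more. Whether width or the lack of gene ends accounts for the lower share in domains without a coding gene was not tested.

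Coding genes lay near many of these domains but seldom next to them. The nearest coding gene was a median of 33.2 kb away (0.77 to 702 kb), within 10 kb in 17 cases and within 50 kb in 78. In 82 of the 124 (66.1%) a coding gene on one side or the other itself lay in another broad domain, and in 42 a flanking gene was on one of the gene lists. Neither share was computed for domains with a coding gene or for smaller RNF2 peaks. Since 225 broad domains lay in chains with gaps of up to 50 kb, these counts do not set the domains without a coding gene apart. The widest domain without a coding gene was MIR9-3HG (69.8 kb), 18.4 kb from POLG and 48.4 kb from RHCG. MIR9-2HG (48.3 kb) lay 13.96 kb from MEF2C, and a 46.7 kb domain over FLJ32255 and ANXA2R-OT1 lay 7.67 kb from ANXA2R. A 44.6 kb domain over LOC101929154 lay 4.43 kb from AP3B1. A 43.1 kb domain over LINC02381 lay 54.9 kb beyond HOXC4 and 4.23 kb from SMUG1, a DNA repair glycosylase, and is the next domain after the HOXC domain along the chromosome. A 42.6 kb domain on chromosome 22 lay over variable segments of the immunoglobulin lambda locus, and had an RNF2 fold of 8.36 and no YTHDF1 peak.

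Noncoding genes filled part of the gap. 63 of the 124 held a lncRNA gene, 15 a pseudogene, 7 a miRNA gene and 6 a tRNA gene. Over all domains 489 of 18303 lncRNA genes (2.67%), 42 of 1913 miRNA genes (2.2%) and 23 of 443 tRNA genes (5.19%) were inside, as were 67 of 15580 pseudogenes (0.43%) and 3 of 1199 snoRNA genes (0.25%), beside 3.84% of coding genes. Any overlap counted and the classes differ in gene length, so these shares do not rank them. The 3 miR-9 genes, whose products act in neural development, lay in domains of 34.4, 48.3 and 69.8 kb, all without a coding gene, covered by H2AK119ub over 100%, 96.5% and 100% and with 0, 1 and 5 YTHDF1 peaks in the order MIR9-1, MIR9-2 and MIR9-3. The hairpins lay 7.97, 12.0 and 14.8 kb from the lower edge of their domains. The nearest coding gene was MEF2C for MIR9-2 and POLG for MIR9-3, and RHBG and MEF2D flanked MIR9-1. The miR-196 and miR-10 genes lay within the HOX clusters. MIR137 lay in a 12.7 kb domain, and MIR375, an islet miRNA, in a 35.3 kb domain with FEV and CRYBA2. MIR449A, MIR449B and MIR449C, which act in multiciliated cells, lay in 1 domain of 19.2 kb inside CDC20B. MIR96 and MIR183, sensory organ miRNAs, shared a 17.4 kb domain with no coding gene.

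**Figure D5:**
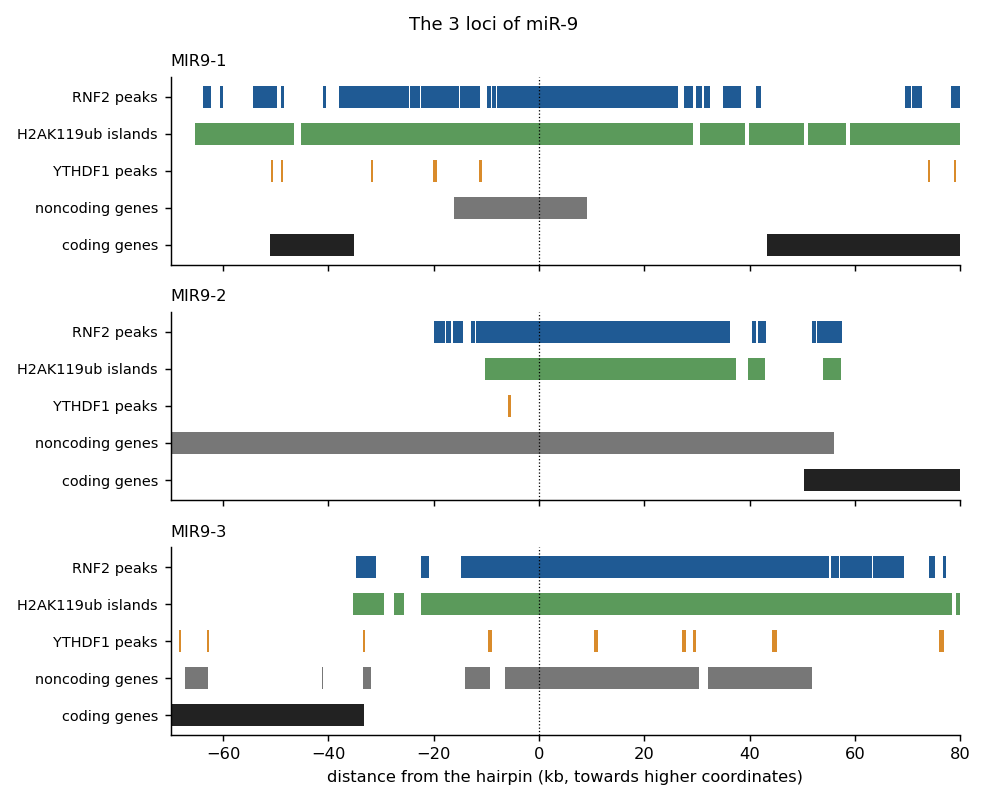
The 3 miR-9 loci, drawn to scale as distance from the hairpin (x, kb), with rows for RNF2 peaks, H2AK119ub islands, wild-type YTHDF1 peaks, noncoding genes and coding genes. At each locus the hairpin (dotted line) lies inside a broad RNF2 peak of 34.4, 48.3 or 69.8 kb over an island of 74.4, 47.6 or 100.8 kb, and the coding genes lie outside that peak.

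Of the 23 tRNA genes, 17 were in 5 domains on chromosome 6, which had no coding gene, and 155 of the 443 tRNA genes of the table are on that chromosome. 3 of those domains, of 24.7, 39.2 and 32.5 kb (chr6:28725294-28749977, chr6:28753351-28792511 and chr6:28798909-28831457), followed each other and held 5 tRNA genes each, with RNF2 folds of 18.4, 65.1 and 53.1, H2AK119ub cover of 100%, 100% and 94.8%, and 0, 0 and 2 YTHDF1 peaks. Counts over repeated sequence such as tRNA genes depend on how reads of near-identical copies were placed, which was not stated.

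Most broad domains had another RNF2 peak close by. Another RNF2 peak lay within 10 kb of 639 domains (89.9%, interval 87.4 to 92.0), against 54.3% of smaller RNF2 peaks and 55.2% of all. The share of domains was 58.9% with the better-scoring 50% of the list and 57.4% after joining RNF2 peaks within 3 kb. The median distance to the nearest RNF2 peak was 332 bp, against 7601 bp for the smaller peaks, and the shortest was 141 bp, at RNF220. A domain had a median of 3 RNF2 peaks within 10 kb of its edges, and at most 9, at ONECUT3 with ATP8B3. These neighbours were mostly small, with a median of 1428 bp. 101 domains (14.2%) had another broad domain within 10 kb. Joining domains up to 50 kb apart gave 96 chains that held 225 domains. The longest chains had 5 domains each: the HOXB region from HOXB1 to TTLL6 over 309.9 kb, SFXN3, TLX1 and LBX1 over 261.0 kb, and FOXP4 over 197.4 kb. The HOXC chain up to SMUG1 had 4 domains over 309.9 kb. Since the same peak call that set the widths also split these stretches, the neighbours describe the list and are no separate readout.

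The most isolated domains were small. That of POU3F4, a transcription factor of the inner ear and brain, was 12.3 kb wide and lay 2635 kb from the nearest RNF2 peak. FLRT2 (11.6 kb) was 1606 kb, CXXC4 (11.1 kb) 406 kb and CSMD3 (10.9 kb) 383 kb from the nearest, and a 14.7 kb domain over LOC101927314 without a coding gene was 303 kb from it. None of these 5 held a YTHDF1 peak, and their H2AK119ub cover was between 70.1% and 94.6%, each below the median of 99.7% of all domains. Of all 711 domains 338 held no YTHDF1 peak. Among domains of 10 to 20 kb, the class of all 5, 40.8% held one, so the lack is not particular to isolated domains. Along the chromosomes the domains were densest on chromosome 17, with 49.3 per 100 Mb. They were sparsest among the autosomes on chromosomes 3 (13.1), 16 (13.3) and 21 (15.0), the X chromosome had 15.4, and there was none on the Y chromosome. This order is per length, and chromosomes differ in gene number. Chromosome 17 had 41 domains beside 1169 coding genes, chromosome 13 had 22 beside 338 and chromosome 18 had 18 beside 270. Per coding gene, chromosome 17 was thus not the densest.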

How the data were processed

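ChIP-seq peak lists of H1 cells were used as the authors deposited them. The authors merged the 2 replicates of each target into 1 list, per the series' design text. Per the submitters' processing notes they worked on hg38 with MACS2 2.1.0, SICER 1.1, Bowtie2 2.2.5, Trimmomatic 0.35, Picard and SAMtools 1.3.1. The caller behind each list is not given in the sources used here. As seen from their layout, the deposited RNF2 and YTHDF1 lists hold a fold enrichment (ratio) per peak, a score capped at 1000, and −log10 q as the authors' caller gave them. The deposited H2AK119ub list holds islands in steps of 200 bp with a score of unstated scale. Input libraries have no list here and were not used directly.

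Overlaps of at least 1 bp, cover, midpoints per length and gaps were computed with Python 3.11.15, pandas 2.3.3, NumPy 2.4.6 and SciPy 1.17.1, and the overlap functions were tested on simulated intervals. Coordinates are hg38, 1-based. Genes came from the RefSeq table of GRCh38.p14: 20033 coding genes, where a gene is in a domain if its body overlaps it. Shares carry exact Clopper-Pearson and densities exact Poisson intervals. No test was run, since each list is 1 merged list and regions are not replicates. The domains and the gene lists were chosen with earlier results of these data known. Named genes followed a rule by rank: the widest domains, the highest and lowest H2AK119ub cover, most and strongest YTHDF1 peaks, most coding genes, most and least isolated domains, knockdown peaks, and the 4 members of each list with the widest domain. For the highest cover, which 348 domains shared, the widest were named. Domains without a YTHDF1 peak, chains of domains, the island over NFIX, list members outside the domains, chromosomes, and the miRNA and tRNA genes were named after their values were seen.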

Additional observations from a re-analysis of the deposited data

How the results depend on the processing

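No paired analysis was possible because the replicates of each target were merged into 1 list. Of 54 alternatives, 30 stayed within the counting interval, or within 1.5 times the count of genes; the others follow, in the order cover by H2AK119ub of at least 90%, share with YTHDF1, YTHDF1 per kb, coding genes, share without coding gene and share with an RNF2 neighbour within 10 kb, whose main values were 79.2%, 52.5%, 0.0380, 770, 17.4% and 89.9%. With a width minimum of 5 kb (2046 peaks) cover was 82.9%, YTHDF1 38.9%, per kb 0.0441, genes 1869 and neighbours 74.0%. With 20 kb (302 domains) YTHDF1 was 68.2%, genes 417, without coding gene 11.3% and neighbours 96.0%. Joining RNF2 peaks within 1 kb (881 domains) gave cover 69.9% and neighbours 73.9%. Joining within 3 kb (1087 domains) gave cover 66.8%, YTHDF1 57.9%, genes 1329 and neighbours 57.4%. With the better-scoring 50% of each list, ties kept, YTHDF1 was 37.3%, per kb 0.0229 and neighbours 58.9%. When a YTHDF1 peak had to reach a −log10 q of 4, the share was 4.08% and per kb 0.00187. Genes wholly inside numbered 329, and 5.91% of domains had no gene of any class. A neighbour within 5 kb was found for 86.2% and within 50 kb for 95.9%. The cause of these differences was not tested. Without the HOX cluster domains, or without predicted and readthrough genes, both chosen after seeing the data, no value left its interval. Depth is unknown, so a domain without a YTHDF1 peak is one where none was called.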
